A study of Homo sapiens with 6 samples.

Results

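The miR-224 and miR-452 cluster consists of the mature miRNAs hsa-miR-224-5p, hsa-miR-224-3p, hsa-miR-452-5p and hsa-miR-452-3p. They were picked by name from a table of miRNA counts, and 4 of the 2588 mature miRNAs in that table are members. The study asked which miRNAs change when the circular RNA hsa_circ_0098181 is overexpressed in Huh7, a human hepatoma cell line. Of 6 samples, 3 were Huh7 cells given a plasmid carrying hsa_circ_0098181 and 3 were Huh7 cells given the control plasmid, all transfected with Lipofectamine 2000. Total RNA was taken 48 h later and its miRNAs were sequenced. Plasmid transfection usually reaches a part of the cells, and the sequencing read the RNA of all cells together.

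A miRNA is cut from a hairpin precursor, whose arms give a 5p and a 3p product, and it recognizes its targets mainly through a short stretch near its 5′ end called the seed. MIR224 and MIR452 are hairpin genes inside GABRE, which encodes the epsilon subunit of the GABA type A receptor, and miRNAs inside a host gene are often transcribed with it. miR-224 is among the miRNAs most often described as raised in hepatocellular carcinoma, and miR-452 has been described together with it.

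The mature sequences of the 4 members are shown as the reference gives them under the counted names, and the seed, bases 2 to 8, is in capitals. The annotation behind the counts is not given, so its sequences may differ. The sequences shown come from RefSeq on GRCh38.p14, read 5′ to 3′, and all 4 members were matched by name.
hsa-miR-224-5p: uCAAGUCAcuagugguuccguuuag
hsa-miR-224-3p: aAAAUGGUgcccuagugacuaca
hsa-miR-452-5p: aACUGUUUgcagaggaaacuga
hsa-miR-452-3p: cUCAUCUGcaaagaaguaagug
The members lie on the minus strand of chromosome X, miR-224-5p at chrX:151958628-151958652, miR-224-3p at chrX:151958584-151958606, miR-452-5p at chrX:151959678-151959699 and miR-452-3p at chrX:151959634-151959655. They have 4 different seeds and differ from each other by 11 to 16 single-base edits. Among names found in both the reference and the count table, the closest other miRNA was 7 to 9 edits away from each member. No near-identical miRNA was thus found for any of them among these names.

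The seed of miR-452-5p is also carried by miR-4676-3p and miR-892c-3p, and the other 3 members shared their seed with no other entry. Both are shown for comparison, with the seed in capitals.
hsa-miR-4676-3p: cACUGUUUcaccacuggcucuu
hsa-miR-892c-3p: cACUGUUUccuuucugagugga
miR-4676-3p lies at chr10:72721072-72721093 on the plus strand and miR-892c-3p at chrX:145992760-145992781 on the minus strand.

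The hairpins are shown from RefSeq with the arms that give the mature products in capitals.
MIR224: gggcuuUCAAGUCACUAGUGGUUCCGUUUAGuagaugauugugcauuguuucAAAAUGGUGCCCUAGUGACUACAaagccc
MIR452: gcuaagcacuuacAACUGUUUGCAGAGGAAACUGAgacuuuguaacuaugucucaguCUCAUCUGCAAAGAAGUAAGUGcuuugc
MIR224 spans 81 bases at chrX:151958578-151958658 and MIR452 spans 85 bases at chrX:151959628-151959712, with 969 bases between them. Their predicted minimum free energies were -37.3 kcal/mol for MIR224 and -41.3 kcal/mol for MIR452. The predicted folds had 19 base pairs between the arms of MIR224 and 11 between those of MIR452. In GENCODE release 29, both hairpins lie in intron 6 of the protein-coding transcript GABRE-201, an intron that runs from 151955861 to 151959838. GABRE has 12 annotated transcripts and spans chrX:151953124-151974680 on the minus strand. Both hairpins also lie in exon 1 of GABRE-209, a transcript that retains an intron, and MIR224 overlaps exon 3 of GABRE-207, another such transcript.

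The depth was 7978507, 8469016 and 8289232 counts in hsa_circ_0098181 replicates 1, 2 and 3, and 10786295, 8677214 and 7144798 counts in control replicates 1, 2 and 3. Over all 6 samples the total was 51345062 counts. A count of 0 allows up to 3 counts, which is 0.278 to 0.420 CPM (counts scaled to a library total of 1000000) in a single library and 0.0584 CPM over all 6 samples. These limits and the intervals given with counts cover counting error only. A read covers a whole mature miRNA, so levels of different miRNAs were compared in CPM with no correction for length.

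The labelled cell type was checked against miRNAs that mark hepatocytes. All 6 of these markers were counted in every sample, and together they took 403572 to 435345 TPM, a unit that here equals CPM. The leading marker, miR-122-5p, was at 330931 ± 8953 TPM (SD, n = 3) with hsa_circ_0098181 and at 313152 ± 10239 TPM in the controls. Markers of muscle summed to 1.45 to 2.24 TPM per sample and the neuronal miR-124-3p to 2.42 to 3.54 TPM. Markers of blood cells summed to 11.6 to 18.3 TPM and those of mesenchyme to 115 to 132 TPM, while miR-126-3p, known from endothelium, was at 3053 to 3271 TPM. Hepatocyte markers were thus the most abundant of these lists, and the identity of the line itself was taken from the label.

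The cluster was at or below the limit of detection in both groups. miR-224-5p, the best-studied product of the cluster, had counts of 0, 1 and 0 in hsa_circ_0098181 replicates 1, 2 and 3. It had counts of 0, 0 and 1 in control replicates 1, 2 and 3. The single counts correspond to 0.118 TPM in hsa_circ_0098181 replicate 2 and 0.140 TPM in control replicate 3, both below the 3-count limit of their library. The groups overlapped, with 1 sample of 3 holding a single count in each.

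The opposite arm, miR-224-3p, had 0 counts in every one of the 6 samples. Both products of the second hairpin, miR-452-5p and miR-452-3p, likewise had 0 counts in all 6. Each of these 3 members was therefore below 0.0584 CPM over all samples, at up to 0.121 CPM over the hsa_circ_0098181 group and up to 0.113 CPM over the control group. In bulk samples such as these, fewer cells with a miRNA and less of it per cell cannot be told apart.

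**Figure D1:**
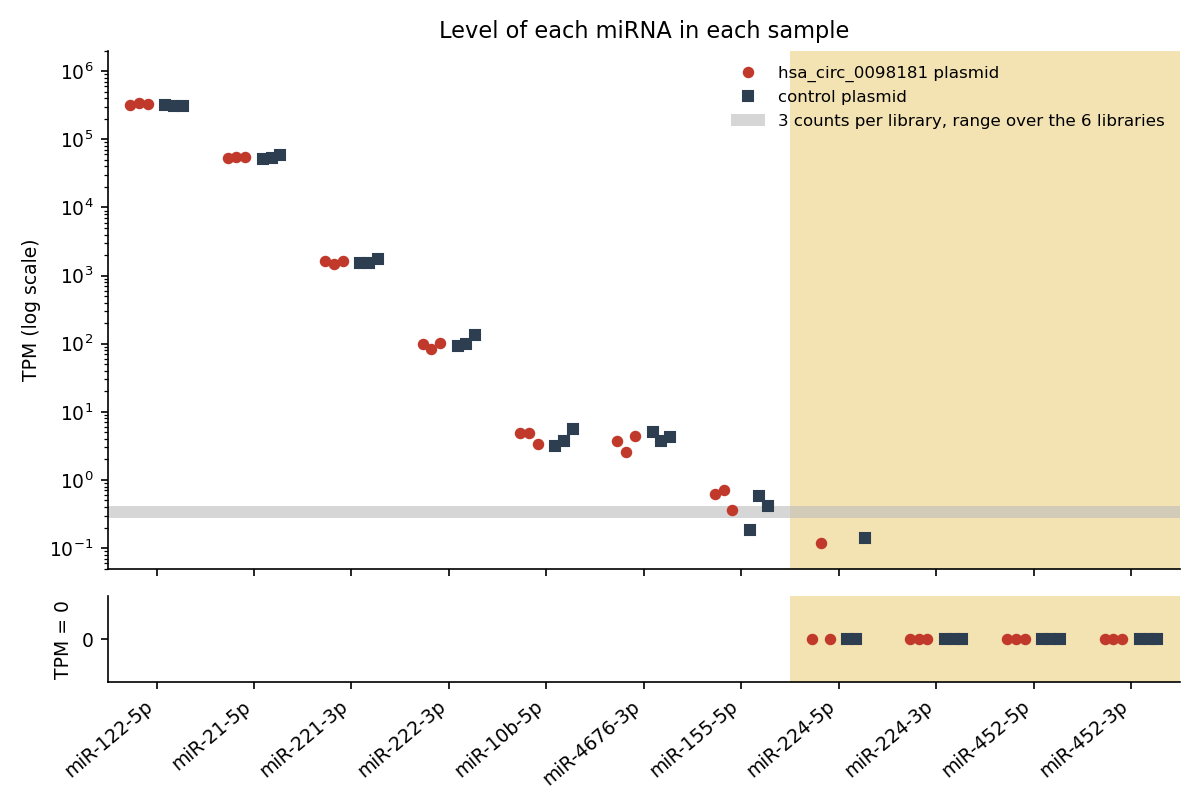
Level of 11 miRNAs in each of the 6 samples, in TPM on a log scale, with values of 0 in the lower strip and the 4 cluster members on the shaded background; red circles are the 3 samples with hsa_circ_0098181, dark squares the 3 controls, and the grey band is the value of 3 counts per library, 0.278 to 0.420. The cluster members show 2 points above 0, at 0.118 and 0.140 TPM for miR-224-5p, and all their other points are at 0.

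The comparison of hsa_circ_0098181 with control gave no measurable difference for the members at this depth. Over the pooled libraries, miR-224-5p was at 0.0404 CPM (95% exact Poisson interval 0.00102 to 0.225) with hsa_circ_0098181 and at 0.0376 CPM (0.000951 to 0.209) in the controls. Averaged by sample, it reached 0.0394 ± 0.0682 CPM (SD, n = 3) in the hsa_circ_0098181 group against 0.0467 ± 0.0808 CPM in the controls. The difference of -0.00729 CPM was smaller than the SD of either group. With a single count in 1 sample of each group, the counts did not separate the groups, and no p is given. No fold change is given for any member, since both groups were at or under 3 counts. A change of the members within this range was not detectable at this depth.

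None of the 4 members passed the abundance filter of the test across the table, which kept 552 miRNAs, and so 0 of 4 members were tested and 0 were called. In the background, 0 of the 552 tested miRNAs passed an adjusted p of 0.05 with edgeR's quasi-likelihood test and Benjamini-Hochberg adjustment, a share of 0%. At an unadjusted p under 0.05, 50 of the 552 passed, a share of 9.06%. DESeq2 and limma also called 0 miRNAs. The count of calls was 56 when control replicate 3 was left out, and 0 of the 4 members passed the filter there too. Control replicate 3 stood apart from the other libraries of its group, with a median absolute log2 difference of 0.22 from control replicate 1 and 0.21 from control replicate 2, against 0.059 between those. It holds 1 of the 2 counts of miR-224-5p, and without it miR-224-5p had 1 count in the remaining samples. Nothing in the labels says that the samples of a group were separate cultures, so p-values measure only the spread between these samples.

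Within the table, the cluster belonged to the large share of miRNAs that were hardly read. Of the 2588 mature miRNAs, 1222 had 0 counts in all samples, or 47.2%, and miR-224-3p, miR-452-5p and miR-452-3p were among them. miR-224-5p was 1 of 78 miRNAs with a total of 2 counts, with 1114 miRNAs above it and 1396 below it. A total of at most 2 counts was held by 1474 miRNAs, 57.0% of the table and all 4 members. The lowest total of a tested miRNA was 50 counts, for miR-664b-3p, and the median of the tested miRNAs was 771 counts. All 4 members lay under this range.

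Members were also compared with miRNAs of their own length. miR-452-5p and miR-452-3p have 22 bases, a length at which 62.6% of 1025 matched miRNAs had at least 1 count. miR-224-3p has 23 bases, where 58.3% of 336 were counted. miR-224-5p has 25 bases in RefSeq, and at that length 8 of 27 miRNAs were counted, with 535 counts in all. Lengths were known for the 2281 names of the table that matched RefSeq.

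Other liver miRNAs in the same libraries give the scale for these values. miR-122-5p, the most abundant miRNA of hepatocytes, had 16558447 counts, and miR-21-5p, which is raised in many cancers, had 2778309. miR-221-3p, described as raised in liver cancer and acting on cell cycle inhibitors, had 81489 counts over all samples. Its count was thus 27163 times the 3-count limit over all 6 samples of each of the 3 members with 0 counts. Against miR-224-5p the ratio was 40744.5, with a 95% exact interval of 11279 to 336446 from counting error. miR-222-3p, encoded beside miR-221 on chromosome X, had 5184 counts, 1728 times the 3-count limit of each member at 0. The ratio of miR-222-3p to miR-224-5p was 2592 (717 to 21409). Folds over the 3-count limit take the count of the other miRNA as it stands, without its counting error.

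The members were also set beside miRNAs best known from other cell types, some of which were as low. miR-1-3p, the most abundant of the 3 muscle markers, had 90 counts, 30 times the 3-count limit of each member at 0. It had 45 times the 2 counts of miR-224-5p (12.1 to 377). The other muscle markers were near the cluster: miR-133a-3p had 3 counts, 1.5 times miR-224-5p (0.172 to 18), and miR-206 had 6, 3 times miR-224-5p (0.536 to 30.4), both within counting error. miR-155-5p, an immune and cancer miRNA, had 24 counts and did not pass the filter. It was at 8 times the 3-count limit of each member at 0 and at 12 times miR-224-5p (2.98 to 105).

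Among the miRNAs that carry the seed of miR-452-5p, miR-4676-3p was the 1 that was read. It had counts of 30, 22 and 37 with hsa_circ_0098181 and of 54, 32 and 30 in the controls, 205 in all. miR-892c-3p had 0 counts in all 6 samples, like miR-452-5p itself. The seed shared by these 3 miRNAs was thus present through miR-4676-3p, which had 68.3 times the 3-count limit of miR-452-5p. Its log2 fold change was -0.16 ± 0.26 (SE; adjusted p = 0.815 with edgeR), so the groups did not differ beyond their error, and the sign turned to 0.0034 without hsa_circ_0098181 replicate 2 and to 0.0020 without control replicate 1. Scaled by library size only, the fold change was -0.26, where the median of all tested miRNAs was -0.11.

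The members were set beside miRNAs with the same reputation in liver cancer. Of 20 miRNAs listed as raised in liver cancer by general knowledge, with miR-224 and miR-452 left out of the list, all 20 were counted in every sample. Of these, 19 were tested and 0 were called, 6 at an unadjusted p under 0.05, beside the 50 of 552 (9.06%) over all tested miRNAs. A positive log2 fold change was held by 13 of the 19 and a negative one by 6, beside 281 and 271 over all tested miRNAs. The lowest total of the 20 was 24 counts, for miR-155-5p, so each of them was above every member of the cluster. The median log2 fold change of the 19 was 0.13, beside 0.0038 over all 552 tested miRNAs. Scaled by library size only, these medians were 0.0072 and -0.11, and with miR-122-5p left out of that size they were 0.046 and -0.075, so that the list and all tested miRNAs moved together. miR-221-3p was at 1590 ± 94.1 TPM with hsa_circ_0098181 and 1601 ± 124 TPM in the controls, with a log2 fold change of 0.11 ± 0.08 (SE; adjusted p = 0.655 with edgeR) that was -0.010 on the scale of library size only, where the median of all tested miRNAs was -0.11. miR-222-3p was at 94.6 ± 9.42 TPM with hsa_circ_0098181 and 110 ± 22.2 TPM in the controls, with a log2 fold change of -0.09 ± 0.13 (SE; adjusted p = 0.799 with edgeR). This fold change was 0.027 without control replicate 3 and -0.21 on the scale of library size only.

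Of 18 miRNAs listed as lowered in liver cancer, all 18 were counted and 17 were counted in every sample. The lowest was miR-214-3p with 3 counts in all, 1 more than miR-224-5p. Of these 18, 16 were tested and 0 were called, 5 at an unadjusted p under 0.05, beside 50 of 552 (9.06%) over all tested miRNAs. A positive log2 fold change was held by 10 of the 16 and a negative one by 6, beside 281 and 271 over all tested miRNAs. The median log2 fold change of the 16 was 0.10. It was -0.0099 with the library size alone, beside -0.11 over all tested miRNAs, and 0.028 when miR-122-5p was left out of that size, beside -0.075. It was 0.068 over the miRNAs with at least 10 counts in every sample, beside 0.0042 over all of those, and 0.010 without control replicate 3, beside -0.0013. Each member of the cluster thus had fewer counts than each miRNA of both lists, although 2 and 3 counts do not differ beyond counting error.

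Hairpins inside a protein-coding gene, as MIR224 and MIR452 are, were found at 787 of 1465 precursors when the gene had to lie on the same strand. Only precursors with a product among the 2281 names that matched RefSeq are included, and products with other names are missing from their totals. Of these 787, 369 gave at most 2 counts over all their products, or 46.9%, and both hairpins of the cluster were among them. The share was 53.0% over all 1465 precursors and 60.2% over the 678 not inside such a gene. A tested product came from 197 of the 787, or 25.0%, against 23.8% of all precursors and 22.3% of those not inside such a gene. Among 716 precursors with both arms listed, MIR452 was 1 of 157 with neither arm counted, or 21.9%. MIR224 was 1 of 198 with 1 arm counted, or 27.7%, and 361 precursors had both.

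As a cluster, MIR224 and MIR452 were near the bottom of those in the reference. With precursors on the same strand joined at a gap of at most 10000 bases, there were 79 clusters of at least 2 precursors. Their totals hold only products whose names matched RefSeq, and a miRNA with several precursors was counted in full in each of its clusters. The cluster, with 4 products and 2 counts, was 1 of 9 with at most 2 counts, or 11.4%, and 7 of these 9 had 0. The median cluster had 1008 counts, and 54 clusters had at least 1 tested product. At a gap of at most 50000 bases, chosen after seeing the data, 17 of 112 clusters, or 15.2%, had at most 2 counts and the median was 265.5. Of 31 clusters with a precursor inside a protein-coding gene, 4 had at most 2 counts, the cluster included.

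In the neighbourhood of the cluster on chromosome X, few miRNAs were abundant enough to be tested. At higher coordinates lies GABRA3, another GABA receptor subunit gene, at chrX:152166234-152451358 on the same strand, which holds the hairpins of miR-105 and miR-767. All 4 of its listed products, miR-105-5p, miR-105-3p, miR-767-5p and miR-767-3p, had 0 counts in every sample, as had 3 of the 4 members. Within 10 Mb of MIR224, 40 other miRNAs were listed, 18 had at least 1 count, 26 had at most 2 counts and 2 were tested. Over the whole table, 52.8% had at least 1 count, 57.0% had at most 2 counts and 21.3% were tested. The tested ones within 10 Mb were miR-508-3p with 553 counts, at -4.72 Mb on the side of lower coordinates, and miR-664b-3p with 50 counts, at 2.81 Mb on the side of higher coordinates. Over the whole of chromosome X, 87 of 155 listed miRNAs were counted, or 56.1%, and 46 were tested, or 29.7%. The members thus shared a chromosome with many miRNAs that were read, and 0 of the 46 tested were called, with a median log2 fold change of 0.016. Among those tested, miR-19b-3p (669794 counts), miR-92a-3p (438812), let-7f-5p (110710) and miR-320d (610) are also encoded elsewhere. Their reads cannot be assigned to chromosome X. The chromosome list, also within 10 Mb, holds only names that matched RefSeq.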

How the data were processed

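The authors deposited counts, the number of reads assigned to each mature miRNA in each sample, without normalization. They also deposited TPM values, which equal the CPM recomputed from the counts within 0.00303. The submitters' notes name TopHat2 2.0.9, Bowtie, TopHat and hg38. Trimming, the miRNA annotation, allowed mismatches, reads with several matches and molecular identifiers are not given in the sources used here. Reads that end elsewhere than the authors' annotation could be lost from the counts of the members.

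Samples were grouped by the labels. Counts of the whole table were compared in R 4.3.3 with edgeR 4.0.16 (filterByExpr with 10 as its lowest count and 15 as its lowest total, scaling by TMM, two-sided quasi-likelihood test, Benjamini-Hochberg adjustment, threshold 0.05), tested on simulated data. DESeq2 1.42.0 and limma 3.58.1 were alternatives. Counting intervals used scipy 1.17.1, and hairpins were folded with RNAfold 2.7.2. Sequences are from RefSeq (GRCh38.p14) and genes from GENCODE release 29. Members and lists were chosen with earlier results of these data known. Named were the members, miR-122-5p, miR-21-5p, miR-221-3p, miR-222-3p, miRNAs sharing a member's seed, the lists and markers. miR-664b-3p and miR-508-3p were named after their values were seen. The ratios planned between members would rest on the added count of 0.5 alone, and likeness to other miRNAs needs a tested member; neither is given.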

Additional observations from a re-analysis of the deposited data

How the results depend on the processing

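The members held 2 counts in all, or 1 without hsa_circ_0098181 replicate 2 or without control replicate 3. Of 4 members 0 passed the filter, and with no filter 1, miR-224-5p, entered the fit. The difference in the share of all counts taken by the members, in percent, was -7.29e-07, and it ranged from -4.67e-06 to 3.94e-06 when 1 sample was left out. It turned positive at 1.24e-06 without hsa_circ_0098181 replicate 1 or 3 and at 3.94e-06 without control replicate 3. The miRNAs called with edgeR numbered 0, but 3 on the scale of library size only, 6 with no filter, and from 0 to 56 with 1 sample left out, the 56 without control replicate 3. The cause was not tested. With the replicate block, 0 were called and 42 had an unadjusted p under 0.05; same-numbered samples correlated at -0.16, 0.15 and 0.16, so the numbers were not taken to pair them, and the block changed no call. The log2 fold change of miR-221-3p was -0.010 and the median of the miRNAs lowered in liver cancer -0.0099 with the library size alone, a scale that moved the median of all tested miRNAs from 0.0038 to -0.11. On the same scale the log2 fold change of miR-222-3p was -0.21 and that of miR-4676-3p -0.26. With 1 sample left out, the log2 fold change of miR-222-3p ranged from -0.18 to 0.027 and that of miR-4676-3p from -0.33 to 0.0034. Over all settings tried, adjusted p-values ranged from 0.360 to 0.972 for miR-221-3p, 0.562 to 0.972 for miR-222-3p and 0.708 to 0.997 for miR-4676-3p. Alternatives chosen after seeing the data gave 17 of 112 clusters (15.2%) with at most 2 counts at a gap of 50000 bases, against 9 of 79 (11.4%), and 467 of 930 precursors (50.2%) inside a gene on either strand, against 369 of 787 (46.9%) on the same strand. Fold changes of the members between groups and ratios of members to each other are not given, since both groups were at or under 3 counts. Depth limits the members to statements above 0.0584 CPM.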

Other observations

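Of the other clusters at the floor, picked after their values were seen, the miR-302 and miR-367 cluster on chromosome 4, known from pluripotent stem cells, had 0 counts over 10 products. The cluster of miR-371a, miR-372 and miR-373 on chromosome 19, known from the same cells, had 1 count over 6 products. The cluster of miR-34b and miR-34c on chromosome 11 had 0 counts over the 3 products whose names matched RefSeq. miR-34a-5p, encoded elsewhere, had 258867 counts. Products with other names were left out of the cluster sums.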
